A study of Mus musculus with 6 samples.

Results

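Serotonin handling and dense granule genes were examined in cultured mouse megakaryocytes, the marrow and fetal liver cells that shed platelets. The 10 genes were Slc6a4, Slc18a2, Tph1, Abcc4, Rab27a, Rab27b, Rab38, Hps1, Hps3 and Lyst, out of 18194 genes named by the array annotation. All 23 probe sets (groups of short probes that read 1 transcript) that name only 1 of these genes were taken, and all 23 passed the filter on dim values. Samples labelled as a Gata-1 knock down, replicates A, B and C, were compared with samples labelled Gata-1 wild type, also A, B and C. In both groups the cells were grown in differentiation medium from progenitors of fetal livers taken at day 13.5, and megakaryocytes were collected on a gradient of bovine serum albumin before RNA was extracted. The labels name neither the allele or agent behind the knock down nor the mouse strain, and they do not say whether animals were pooled or replicates grown as separate cultures. The p-values therefore measure only how far these samples scatter, and that scatter may be technical.

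Platelet dense granules are lysosome-related organelles that hold serotonin, ATP, ADP and calcium and release them when the platelet is activated. Serotonin is made from tryptophan by tryptophan hydroxylase and aromatic amino acid decarboxylase, taken up from plasma by a transporter in the surface membrane, and moved into the granule by a vesicular transporter that runs on a proton gradient. The granules are built in the megakaryocyte by the Hermansky-Pudlak complexes (BLOC-1, BLOC-2, BLOC-3 and AP-3) with Rab GTPases of the Rab32 and Rab38 kind. Loss of subunits of these complexes in mice gives pale coats and a bleeding tendency. GATA1 is a zinc finger transcription factor of megakaryocytes and red cells that binds DNA at GATA motifs.

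The stretches just before the transcription starts of the 2 transporter genes are shown because these genes changed most, in opposite directions, in cells labelled as short of a factor that binds the GATA motif. Capitals mark matches, on either strand, to the motif AGATAA or its variant AGATAG, or to the motif TGATAA or its variant TGATAG, in the 250 bases before the start, from RefSeq windows of the GRCm38.p6 build. The Slc6a4 stretch is chr11:76998347-76998596 and the Slc18a2 stretch is chr19:59260628-59260877, both on the plus strand and written 5′ to 3′.
Slc6a4: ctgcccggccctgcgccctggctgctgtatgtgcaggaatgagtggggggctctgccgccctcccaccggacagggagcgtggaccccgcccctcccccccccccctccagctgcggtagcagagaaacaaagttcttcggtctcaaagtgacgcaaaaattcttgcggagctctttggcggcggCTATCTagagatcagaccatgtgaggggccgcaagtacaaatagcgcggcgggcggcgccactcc
Slc18a2: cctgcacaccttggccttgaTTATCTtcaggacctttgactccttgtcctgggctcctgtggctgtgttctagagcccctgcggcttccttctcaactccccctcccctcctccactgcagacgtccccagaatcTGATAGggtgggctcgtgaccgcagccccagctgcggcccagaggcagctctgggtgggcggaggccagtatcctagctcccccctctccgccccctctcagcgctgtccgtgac
The Slc6a4 stretch held 1 match, which began 65 bases before the start, and it read on the minus strand. The Slc18a2 stretch held 2 matches, which began 230 and 115 bases before the start. Of 32851 RefSeq promoter windows of this length, 26.5% held a match and 6.4% held at least 2. RefSeq windows were read for 8 of the 10 genes, 12 windows in all, and none for Rab27b or Rab38. The selection for the 10 genes left out 1 chromosome that the share over all windows kept. A gene with no window read here may therefore still have one in RefSeq. Of the 12 windows 4, of 4 genes, held a match. The other two were those of 1 of the alternative starts of Tph1 and of Abcc4. A match of letters is a description of the sequence and not a binding site.

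Signals were read on 6 arrays, 1 a sample. Array medians were 111.3 to 137.8 in knockdown and 101.6 to 104.4 in wild type. Knockdown B had the highest of these and, at 132.0, the highest signal among the bacterial control probe sets, against 60.7 to 82.2 on the other 5 arrays. Gata1 itself, read by 1 probe set, averaged 164 ± 27.2 on the knockdown arrays against 8489 ± 239 on the wild-type arrays (mean ± SD of 3 each). Log2 fold changes below are knockdown minus wild type, of quantile normalized log2(signal + 32) values with limma's standard error (SE), and a probe set was called where its Benjamini-Hochberg adjusted p over all 31526 probe sets tested was under 0.05. The 2 groups differed widely, since 30.4% of the probe sets tested were called.

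Of the 23 probe sets, 5 rose, 2 fell and 16 were not called, so that 30.4% were called, the same share as over all probe sets tested (16.1% higher and 14.3% lower). By the brightest probe set of each gene, 3 genes rose (Slc18a2, Rab38 and Lyst), 2 fell (Slc6a4 and Abcc4) and 5 were not called. Over all 14230 genes tested, 35.5% were called, with 18.3% higher and 17.1% lower. The median log2 fold change of the 23 probe sets was 0.14, against 0.04 over all probe sets tested. Deposited signals of the groups did not overlap for 13 of the 23, and for 46% of all probe sets tested. These shares therefore do not set the 10 genes apart from other genes, and the results below are those of single genes.

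**Figure D1:**
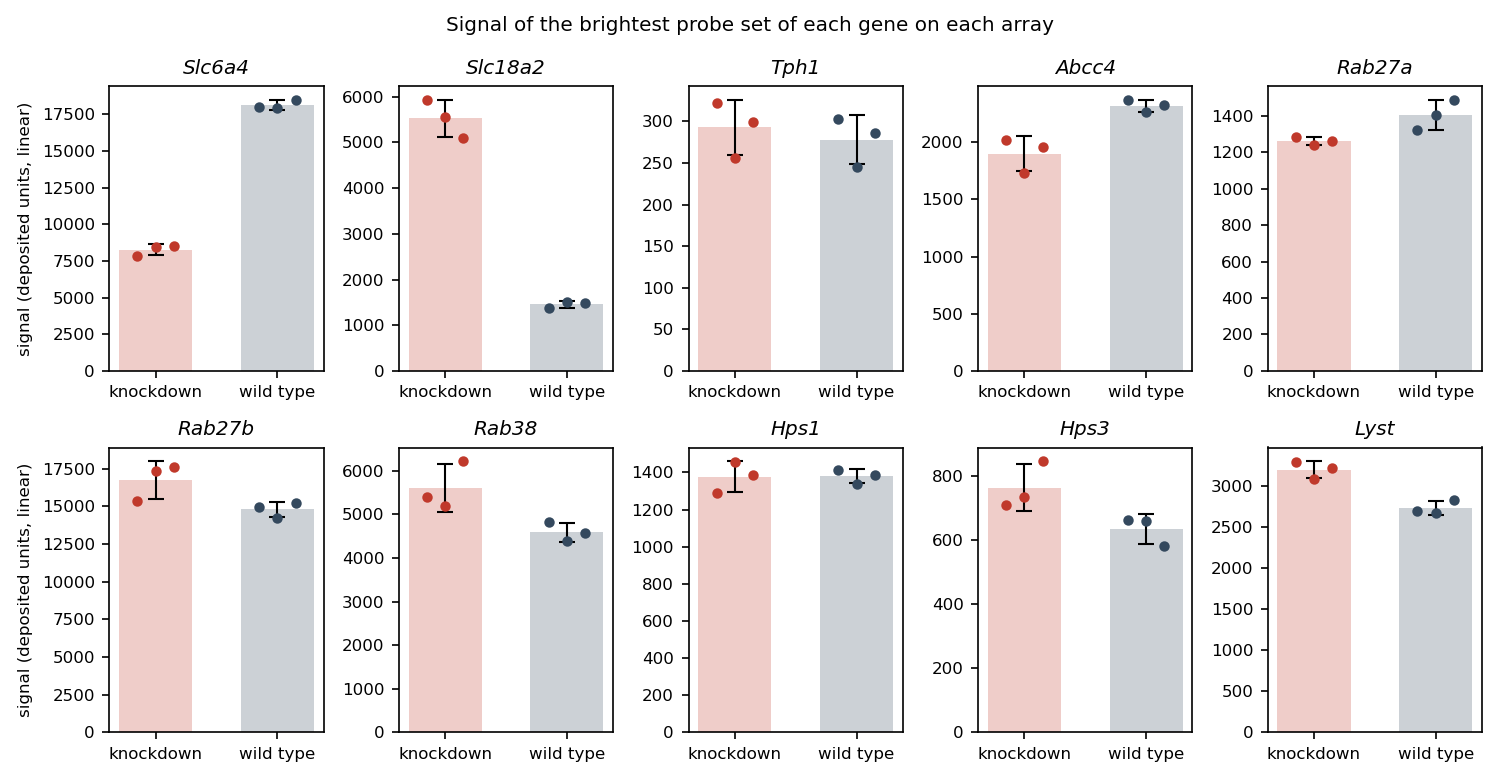
Deposited signal (linear, vertical axis from 0) of the brightest probe set of each of the 10 genes, in knockdown (left of each panel) and wild type (right). Points are arrays, bars are means and error bars are SD (n = 3 each). The knockdown arrays of Slc6a4 sit between 7853 and 8496, all below the wild-type arrays, and those of Slc18a2 between 5097 and 5918, all above the wild-type arrays.

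The transporter genes of serotonin uptake and serotonin storage changed in opposite directions. Slc6a4, the plasma membrane serotonin transporter, read 7852.9, 8476.9 and 8495.8 in knockdown A, B and C, and 18036.9, 17906.4 and 18515.9 in wild type A, B and C. The 2 groups were far apart and each was tight, with means of 8275 ± 366 in knockdown against 18153 ± 321 in wild type (± SD of 3 arrays). This is a log2 fold change of -1.24 ± 0.04 (SE; limma adjusted p 2.45e-08), and knockdown was 2.37-fold lower. Among the 2439 genes called lower, 487 had a larger fall. Of 14 megakaryocyte markers 12 also fell, with a list median of -0.59, and the part of this in the fall of Slc6a4 was not tested. In knockdown 600 to 654 of the 45101 probe sets of an array were brighter than Slc6a4, against 31 to 55 in wild type, where the brightest probe set of an array read 21181.8 to 23171.2.

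Slc18a2 encodes the vesicular monoamine transporter that loads serotonin into dense granules, and also loads histamine and other amines in other cells. It read 5918.2, 5561.6 and 5097.3 in knockdown and 1375.9, 1506.5 and 1496.1 in wild type. The lowest knockdown array was more than any wild-type array, and the means were 5526 ± 412 in knockdown against 1460 ± 72.6 in wild type (± SD of 3 arrays). Its log2 fold change was 1.95 ± 0.07 (SE), or 3.85-fold higher in knockdown, with a limma adjusted p of 5.20e-08. Of the 2606 genes called higher, 36 had a larger rise.

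The 2 transporter genes were also set against each other on each array, which needs no scaling between arrays. The log2 signal of Slc18a2 minus that of Slc6a4 was -0.41, -0.61 and -0.74 in knockdown A, B and C, against -3.71, -3.57 and -3.63 in wild type A, B and C. This difference was higher in knockdown by 3.05 on the log2 scale, with means of -0.58 ± 0.17 in knockdown against -3.64 ± 0.07 in wild type (± SD of 3 arrays). The groups did not overlap, and an exact permutation test of 3 against 3 arrays cannot go below a two-sided p of 0.1. The genes were paired after both were seen to change in opposite directions without overlap, so this difference had to separate the groups. It restates their unequal changes without scaling between arrays and is no further test of them. It gives no order of their levels, since a probe set's signal depends on its probes.

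Tph1, tryptophan hydroxylase of tissues outside the brain, which catalyses the rate-limiting step of serotonin synthesis, was dim and was not called. It read 322.4, 256.5 and 299.7 in knockdown and 302.7, 245.3 and 285.6 in wild type, so that the groups overlapped throughout. The deposited means were 293 in knockdown against 278 in wild type, while the normalized log2 fold change of -0.07 had a 95% interval of -0.40 to 0.27 (limma adjusted p 0.790), and a change within that interval was not detectable with 3 arrays a group.

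Abcc4, an ATP-driven exporter of cyclic nucleotides that in human platelets is also found on dense granules, fell slightly. It read 2021.4, 1726.8 and 1954.5 in knockdown and 2367.5, 2262.3 and 2328.1 in wild type, with no overlap. The log2 fold change was -0.25 ± 0.07 (SE; limma adjusted p 0.0184). The call was lost when any 1 wild-type array was left out, with values of -0.27 to -0.24 and limma adjusted p of 0.0522 to 0.0777, and without an intensity trend in the fit (0.0946).

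**Figure D2:**
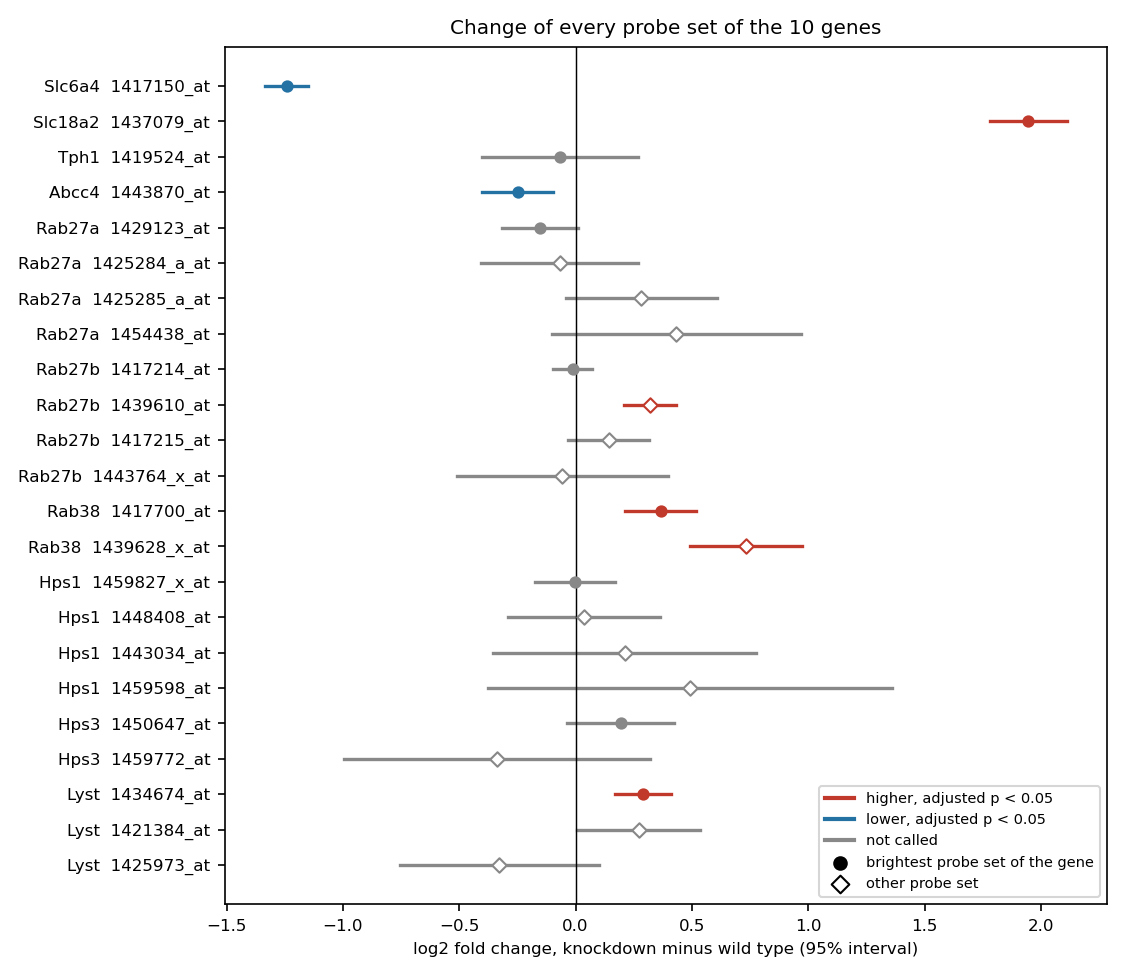
Log2 fold change, knockdown minus wild type, of each of the 23 probe sets with its 95% interval from limma. Red marks 5 probe sets that rose, blue 2 that fell and grey 16 that were not called. Circles are the brightest probe set of a gene and open diamonds its other probe sets. Slc18a2 at 1.95 and Slc6a4 at -1.24 lie far outside the range of the other 21.

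The Rab GTPases bring lysosome-related organelles into being and to the membrane. Rab38, which sorts cargo to such organelles and is mutated in chocolate mice, rose on both of its probe sets. Its brighter probe set read 5393.9, 5190.8 and 6222.1 in knockdown and 4813.6, 4388.6 and 4566.3 in wild type, a log2 fold change of 0.37 ± 0.07 (SE; limma adjusted p 0.00238). The other one, of a type whose probes may also match further sequences, read 5036.9, 7036.1 and 5617.5 in knockdown and 4046.2, 3492.2 and 3605.0 in wild type. It changed by 0.73 ± 0.11 (SE; limma adjusted p 5.09e-04), and the groups did not overlap on either probe set. Knockdown B gave the lowest knockdown value on the first and the highest on the second.

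Rab27b, the main Rab27 protein of platelets and needed in mice for normal dense granule number and secretion, gave different answers on its 4 probe sets. One probe set rose, with 8676.0, 8955.3 and 8380.0 in knockdown and 6957.6, 7319.8 and 7511.8 in wild type, a log2 fold change of 0.32 ± 0.05 (SE; limma adjusted p 7.35e-04). The brightest read 15331.0, 17343.0 and 17602.0 in knockdown and 14964.1, 14256.9 and 15209.1 in wild type. These signals did not overlap as deposited, yet after quantile normalization its log2 fold change was -0.01, with a 95% interval of -0.10 to 0.07. That interval and the interval of the probe set that rose, 0.21 to 0.43, did not meet. Between 163 and 191 probe sets of each array were brighter than this probe set. The last 2 were not called, at 0.14 and -0.06 (limma adjusted p 0.213 and 0.873).

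Rab27a, the paralog mutated in ashen mice, whose pigment and cytotoxic granules fail to dock, was not called on any of its 4 probe sets. The brightest read 1284.7, 1239.0 and 1264.5 in knockdown and 1322.8, 1407.0 and 1489.1 in wild type. The groups did not overlap, but the log2 fold change was only -0.15 ± 0.07 (SE; limma adjusted p 0.154). It was called with arrays centred on their medians, at -0.35 (limma adjusted p 0.0387). Its other probe sets had values of -0.07, 0.28 and 0.43. The second of these was called higher with the values as deposited, at 0.42 (limma adjusted p 0.0497), and the last was above the bacterial controls on only 1 of the 3 wild-type arrays.

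The Hermansky-Pudlak genes among the 10 were not called. Hps1, a BLOC-3 subunit mutated in pale ear mice, read 1291.4, 1457.3 and 1384.7 in knockdown and 1412.9, 1339.9 and 1384.3 in wild type on its brightest probe set. That probe set is of the type whose probes may also match further sequences. The groups overlapped, and the log2 fold change of -0.0021 had a 95% interval of -0.18 to 0.17 (limma adjusted p 0.988). A further probe set of Hps1 changed by 0.04 ± 0.15 (SE), and the last 2 were dim, with some arrays of both groups at or below the bacterial controls. Hps3, a BLOC-2 subunit mutated in cocoa mice, read 709.0, 734.8 and 847.0 in knockdown and 664.0, 659.7 and 582.4 in wild type. These did not overlap, but its log2 fold change of 0.19 had a 95% interval of -0.03 to 0.42 and a limma adjusted p of 0.197. It was called higher with array weights in the fit, at 0.28 (limma adjusted p 0.0379). The second Hps3 probe set lay at or below the bacterial controls on arrays of both groups.

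Lyst, the large BEACH-domain protein mutated in beige mice and in Chediak-Higashi syndrome, rose on its brightest probe set, which read 3290.7, 3085.3 and 3212.9 in knockdown and 2687.2, 2674.1 and 2823.6 in wild type. The log2 fold change was 0.29 ± 0.05 (SE; limma adjusted p 0.00235). A second probe set had a similar value of 0.27 ± 0.12 but was not called (limma adjusted p 0.119), and its groups did not overlap, at 569.4, 657.6 and 632.4 in knockdown and 511.8, 421.0 and 515.5 in wild type. It was called with the values as deposited and without knockdown A, at 0.34 in both (limma adjusted p 0.0364 and 0.0482). The third, dim one was at -0.33 ± 0.19 and was not called. With the mean of its 3 probe sets in place of the brightest, Lyst was at 0.08 and was not called.

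The smaller rises depended on how the arrays were put on a common scale. With arrays centred on their medians, the log2 fold changes were 0.09 for the brighter Rab38 probe set, 0.06 for the Rab27b probe set and 0.03 for Lyst, and none was called (limma adjusted p 0.638, 0.668 and 0.870). Under that centring the median over the 10% brightest probe sets tested was -0.18, against 0.05 with quantile normalization and 0.01 with the values as deposited. The second Rab38 probe set was called under all 3 scalings, at 0.46 with centring. Slc6a4 stayed between -1.33 and -1.13 and Slc18a2 between 1.70 and 2.02 in all 15 alternatives, and both were called in each.

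**Figure D3:**
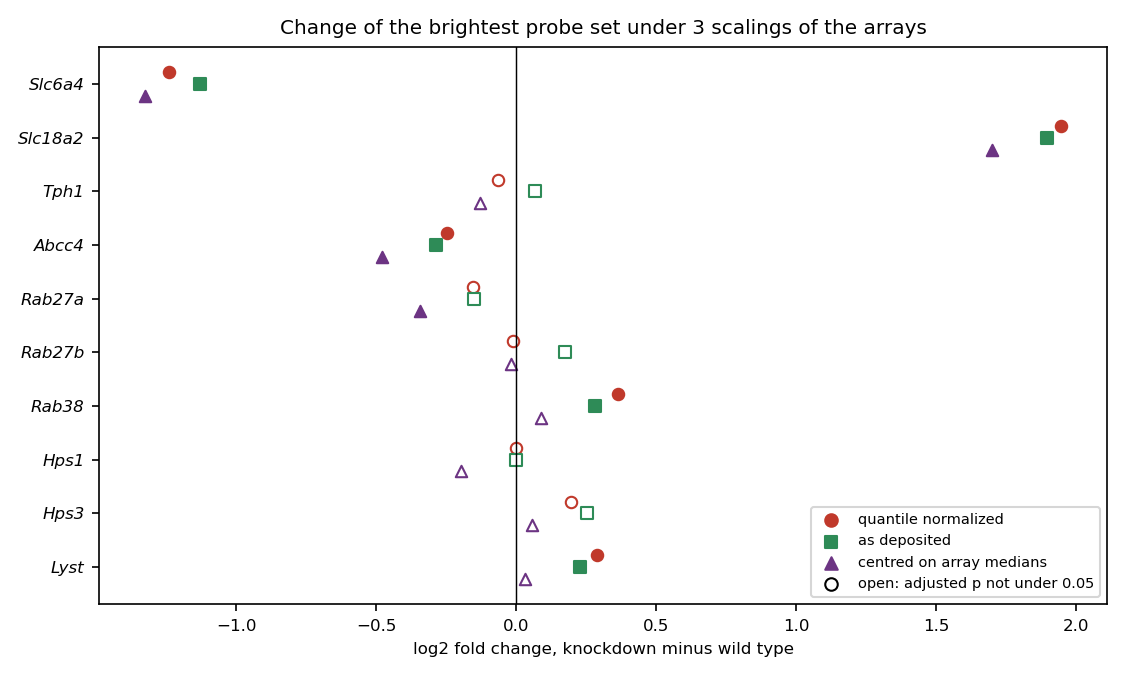
Log2 fold change, knockdown minus wild type, of the brightest probe set of each gene with the arrays quantile normalized (circles), as deposited (squares) and centred on their medians (triangles). Filled symbols have a limma adjusted p under 0.05. Slc6a4, Slc18a2 and Abcc4 are filled under all 3 scalings, while Rab38 and Lyst are open with median centring.

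Other genes of granule building, loading and release were read from lists, by each gene's brightest probe set, and each list's share of called genes stands against 35.5% called over all genes tested (18.3% higher and 17.1% lower). Of 27 dense granule biogenesis genes, 5 rose, 3 fell and 19 were not called (29.6% called; median log2 fold change -0.07, against 0.03 over all genes tested). Hps4, the partner of Hps1 in BLOC-3, fell by 1.05 ± 0.06 on the log2 scale, with 2306.4, 2239.0 and 2335.9 in knockdown and 5353.8, 4864.6 and 4907.3 in wild type (limma adjusted p 5.91e-07). The difference between Hps4 and Hps1 was not tested. The BLOC-2 subunits Hps5 and Hps6 had values of -0.53 and -0.52 and were not called (limma adjusted p 0.182 and 0.0614). Rab32, the close relative of Rab38, and the AP-3 subunit Ap3b1 changed by -0.38 and -0.23. The call of Rab32 was lost in 8 of 16 alternatives, among them without knockdown B, knockdown C or any 1 wild-type array. That of Ap3b1 was lost in 10 of 16, among them without knockdown A, knockdown C or any 1 wild-type array. Slc35d3, a nucleotide sugar transporter family member whose loss depletes mouse platelet dense granules, rose by 0.38 ± 0.06, the BLOC-1 subunit Bloc1s2 by 0.41 ± 0.08 and Rabggta, of the enzyme that prenylates Rab proteins, by 0.53 ± 0.13. The first 2 calls were lost with median centring (0.09 and 0.20), and that of Rabggta without knockdown C.

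Of 23 genes of docking and release, 10 fell, 3 rose and 10 were not called (56.5% called, against 35.5% over all genes tested; median -0.23). Sytl4, which encodes granuphilin, an effector that binds Rab27 proteins, read 477.8, 355.4 and 476.3 in knockdown and 2487.2, 2494.4 and 2440.0 in wild type, a log2 fold change of -2.46 ± 0.11 (SE; limma adjusted p 1.94e-07). The membrane fusion genes Snap23 and Stx11 changed by -1.02 ± 0.15 and -0.92 ± 0.06. Sytl2, another Rab27 effector, rose by 0.71 ± 0.11 and the GTPase Rab8a by 0.33 ± 0.06, with Rab7 at 0.21 ± 0.06. The call of Rab8a was lost with median centring and with the mean of its probe sets. That of Rab7 was lost in 6 of 16 alternatives, among them without knockdown C, wild type A or wild type C. The sign of Rab7 turned, to -0.071, with median centring. Of 16 genes of the granule membrane and of nucleotide transport, 6 fell, 2 rose and 8 were not called (50% called, against the same 35.5%; median -0.13). The proton pump genes Atp6v1a, Atp6v1b2 and Atp6ap1, whose pump acidifies such organelles, changed by -0.56, -0.53 and -0.48. The zinc transporter Slc30a3 was at 0.48. Its call was lost in 10 of 16 alternatives, among them without knockdown B, knockdown C or any 1 wild-type array. The mitochondrial channel Vdac1 was at 0.28, a call lost in 4 of 16 alternatives, among them with median centring or without knockdown C. Slc17a9, the vesicular nucleotide transporter that loads ATP and ADP, had a value of 0.38 ± 0.17 and was not called (limma adjusted p 0.129), and was named after its values were seen.

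Among 21 other genes of serotonin and monoamine metabolism, 8 fell, 1 rose and 12 were not called (42.9% called, against 35.5% over all genes tested; median -0.20). Several were dim, and 10 of the 22 with a probe set were above the bacterial controls on all 6 arrays. Hdc, which makes histamine, was within the bacterial controls on all 3 knockdown arrays, at 15.1, 26.2 and 19.3, against 231.6, 214.4 and 165.0 in wild type. The fall of Hdc was at least 2.44-fold. Ddc, the decarboxylase of the second step of serotonin synthesis, named after its values were seen, read 47.3, 107.4 and 142.2 in knockdown and 215.3, 221.7 and 231.2 in wild type. Of its knockdown signals 1 exceeded the bacterial controls, and its fall was at least 2.21-fold (limma adjusted p 0.00506). The plasma membrane dopamine transporter Slc6a3, at 63.4, 183.2 and 81.1 in knockdown and 422.6, 419.1 and 379.7 in wild type, changed by -1.85 ± 0.24. Aldh1a1 was within the bacterial controls in knockdown and at least 1.11-fold lower. Its call was lost in 7 of 14 alternatives, among them without knockdown A, knockdown C or wild type A. Slc7a5, a carrier of large neutral amino acids such as tryptophan, rose by 0.28 ± 0.06. Slc7a5 was at 0.01 and not called with median centring, and was not called without an intensity trend. Of 9 genes for serotonin receptors and for the enzymes that couple serotonin to proteins, 1 rose and 8 were not called (11.1% called, against 35.5%). The riser was the transglutaminase Tgm2, at 2.63 ± 0.09. The median of these 9 genes was 0.48, but only 4 were above the bacterial controls on all 6 arrays. Of 14 paralogs of Lyst, Rab27 and Rab38, 3 fell, 1 rose and 10 were not called (28.6% called, against 35.5%), with Rab7b at -1.28, Rab37 at -1.03 and Nbea, a relative of Lyst, at 0.64.

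**Figure D4:**
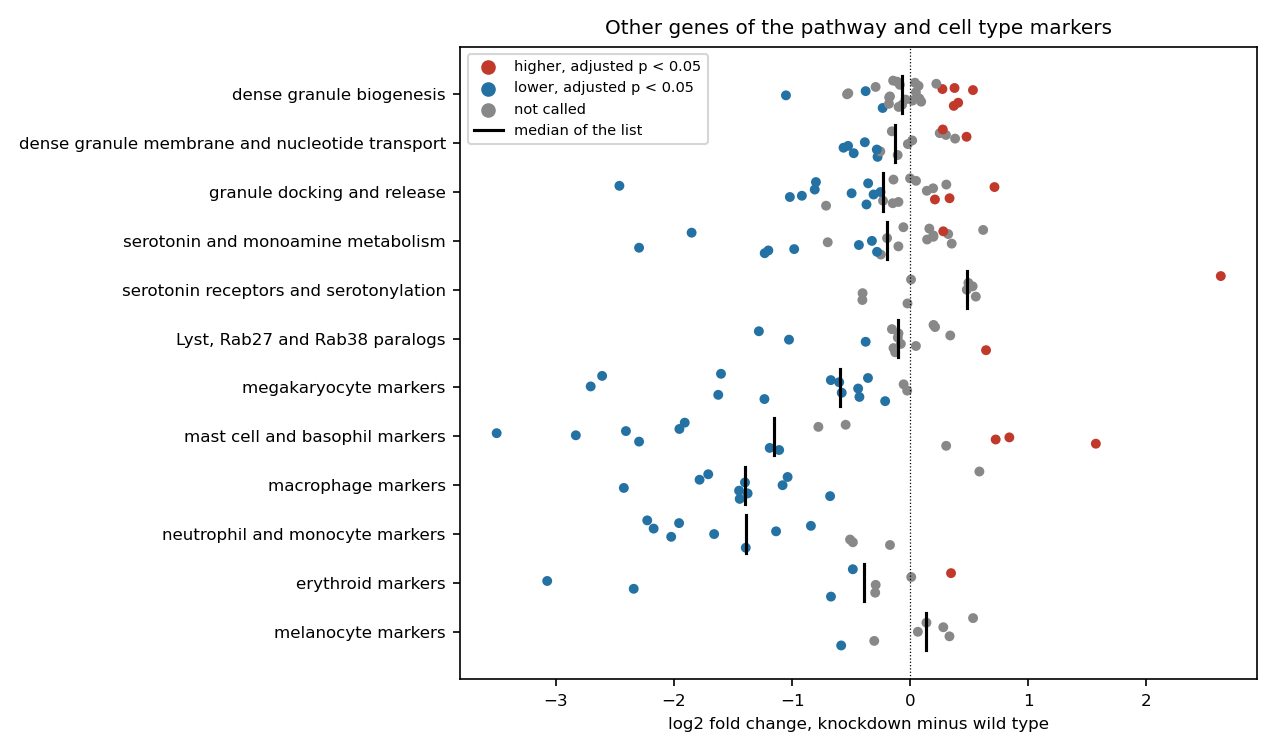
Log2 fold change, knockdown minus wild type, of each tested gene of 6 pathway lists (upper rows) and of 6 lists of cell type markers (lower rows), 1 point a gene. Red points rose, blue fell and grey were not called, and black bars are list medians. Medians of macrophage and of neutrophil and monocyte markers lie near -1.40 and -1.39, and those of the 2 lists on dense granule biogenesis and its membrane near 0.

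Slc18a2, Slc6a4, Tph1 and Hdc are also expressed by mast cells and basophils, so markers of other cells were read beside them. In bulk samples, fewer cells of a type and less RNA per cell cannot be told apart. Of 14 mast cell and basophil markers, 8 fell, 3 rose and 3 were not called (78.6% called, against 35.5% over all genes tested; median -1.15). The 3 that rose were Gata2 at 1.57, Kit at 0.84 and Hpgds, named after its value was seen, at 0.72, and of these Gata2 and Kit are also genes of early progenitors. The brightest besides Gata2 was the protease gene Cpa3, at -1.19. The summed signal of this list was 9416 to 10493 in knockdown and 7657 to 8409 in wild type, and without Gata2 it was 2427 to 2866 in knockdown and 5217 to 5976 in wild type. On the knockdown arrays 8 of the 14 markers (Fcer1a, Ms4a2, Mcpt1, Mcpt4, Mcpt8, Tpsb2, Tpsab1 and Hdc) lay within the bacterial controls on all 3, Mcpt2 exceeded them on 1, and Cpa3, Cma1, Kit, Gata2 and Hpgds exceeded them on all 3. With the probe sets used for the sums, 7 lay within the controls on all 3 knockdown arrays, these 8 without Ms4a2. On the wild-type arrays 12 of the 14 exceeded the bacterial controls on all 3, Tpsab1 on 2 and Fcer1a on 1.

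Markers of megakaryocytes were present in both groups, with 14 of 14 above the bacterial controls on all 6 arrays, 12 lower, 0 higher and 2 not called (85.7% called, against 35.5% over all genes tested; median -0.59). Their summed signal was 125084 to 155638 in knockdown and 180693 to 192686 in wild type. The values ran down to -1.60 for Vwf, -1.63 for Gp6, -2.61 for Tubb1 and -2.71 for P2ry12, named after their values were seen. Itga2b and Clec1b were the brightest, at -0.03 (not called) and -0.21, and the sign of Clec1b turned, to 0.075 and not called, with the values as deposited. The call of Clec1b was also lost with median centring and without an intensity trend. Of 11 macrophage markers 10 fell and 1 was not called (90.9% called; Csf1r -1.40, Cd68 -1.08), with summed signals of 7831 to 7885 in knockdown and 20473 to 21002 in wild type. Of 11 neutrophil and monocyte markers 8 fell and 3 were not called (72.7% called; S100a9 -2.23, S100a8 -1.96), with sums of 3338 to 3418 in knockdown and 11553 to 11971 in wild type. Of 8 erythroid markers 4 fell, 1 rose and 3 were not called (62.5% called; Hbb-y -3.07, Tfrc -0.49), with sums of 7872 to 8149 in knockdown and 21863 to 22284 in wild type. Melanocytes also use Rab38, Rab27a and the Hermansky-Pudlak genes. Of 7 melanocyte markers 1 fell (Mitf, at -0.58) and 6 were not called, Sox10 among them (14.3% called). The call of Mitf was lost in 7 of 16 alternatives, among them without knockdown B, wild type A or wild type B. Melanocyte sums were 883 to 1497 in knockdown and 952 to 1129 in wild type, with Dct and Mlana within the bacterial controls on all 6 arrays. The part of these cell types in the changes of the 10 genes was not tested.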

How the data were processed

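The deposited table holds intensity values on a linear scale for 45101 probe sets on 6 arrays. The mean of each array, computed here with 2% trimmed at each end, was 500.0. The sources used here do not name the software behind the deposited values. Values were quantile normalized as log2(signal + 32). The 64 control probe sets and those with a mean under the 30th percentile were left out, which left 31526. Groups were compared with limma 3.58.1 in R 4.3.3 (lmFit with group alone, eBayes with a trend on intensity, two-sided, Benjamini-Hochberg over all probe sets tested). The fit was also run on simulated arrays in which few probe sets changed. That run does not check the normalization where many probe sets change, as here. The number of arrays limits the precision, and intervals are 95%.

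Genes were named from the platform annotation where it names 1 symbol, updated by gene number through RefSeq (GRCm38.p6). Where a gene had several, the probe set highest in mean normalized log2 signal stood for it. Summed marker signals use each gene's probe set with the highest deposited mean, untested genes included. Background is the highest of 27 bacterial control probe sets on each array. A gene at or below it on 2 or 3 arrays of a group has a bound, written as at least, from means of normalized log2 signals without the offset, with the dim group's arrays raised to that control.

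The 10 genes and the lists were chosen with earlier results of these data known. The genes named by rule are the 10, Gata1 and up to 3 called genes in each direction of each pathway list. To these the rule adds Kit, Gata2 and the 2 brightest of each marker list. BLOC-2 subunits were added for their role beside Hps3, after their values were seen. Slc17a9, Ddc, Hpgds, Vwf, Gp6, Tubb1 and P2ry12 were also named after their values were seen. Other mast cell and basophil markers, and Dct and Mlana, were named only for their place against the bacterial controls. Within a group, at most 0.233% of signals were identical between any 2 arrays. The labels do not say whether letters A, B and C pair the samples. Deviations of same-letter arrays correlated at -0.04, -0.02 and -0.0096, and the main fit did not pair them. These correlations cannot show whether same-letter samples shared a culture or a processing day. Alternatives tried were no further normalization, offsets of 1 and 100, median centring, no filter, a filter at the 50th percentile, no trend, array weights, the letters as a block, the mean of a gene's probe sets and each array left out.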

Additional observations from a re-analysis of the deposited data

How the results depend on the processing

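Slc6a4 and Slc18a2 kept their calls and directions under all 15 alternatives each, and so did the second Rab38 probe set. The 5 probe sets and 3 genes of the 10 that rose became 2 and 1 with arrays centred on their medians, and reached 7 probe sets with the values as deposited and 4 genes with array weights. The 2 probe sets and 2 genes that fell became 1 and 1 without an intensity trend, where Abcc4 was lost, ranged over 1 to 2 with 1 array left out, and became 3 and 3 with median centring. Over the 107 tested genes of all pathway lists, 13 rose and 29 fell. The risers were 4 with median centring, 7 without the trend and 8 to 24 with 1 array left out, with 24 without knockdown A and 8 without knockdown C, and the falls ranged over 21 to 39 in all alternatives. By list, risers and falls ranged over 1 to 7 and 1 to 6 for dense granule biogenesis (main 5 and 3), 0 to 3 and 4 to 8 for the granule membrane (2 and 6), 1 to 5 and 7 to 12 for docking and release (3 and 10), 0 to 5 and 5 to 9 for monoamine metabolism (1 and 8), 1 to 2 and 0 to 0 for receptors and serotonylation (1 and 0), and 1 to 2 and 2 to 6 for the paralogs (1 and 3). Signs turned for Rab7, at -0.071 with median centring, and Clec1b, at 0.075 with the values as deposited. With the letters as a replicate block, 12 pathway genes rose and 25 fell, and the counts for the 10 genes were as reported. Among probe sets that were not called, some changed sign, such as Tph1 in 2 of 15 alternatives. Others, such as the brightest of Hps3, kept their sign in all 15. The causes of these changes were not tested. Over all probe sets, 52.9% of calls were rises, against 32.9% with median centring and 60.0% as deposited. Dim probe sets of Hps1, Hps3, Rab27a and Lyst lay near the bacterial controls, where a change could not be detected.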
